A study of Zea mays with 6 samples.

Results

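Thiol redox proteins and antioxidant enzymes were followed in 3 tissues of the maize inbred line Q319, each with 2 RNA-seq libraries: embryo sacs taken 14 to 16 h after pollination (PES), unpollinated embryo sacs (ES) and nucellus (NU). Embryo sacs are the female gametophytes of the ovule, with the egg cell, the central cell and accessory cells, and the surrounding nucellus is maternal tissue. Each library was made from poly(A) RNA of tissue freed from ovule slices by enzyme digestion, so a library averages over the cell types of its tissue. The labels do not say whether pollen tube material was present in the pollinated sacs. A transcript model was a member when its deposited protein description, without the species name, contained glutathione, glutaredoxin, thioredoxin, peroxiredoxin, ascorbate, superoxide dismutase, catalase or respiratory burst oxidase. No measured value entered this rule. It gave 159 models of 115 genes, out of 42007 models of 31057 genes that had a read in any library. By description they were 53 glutathione transferases, 30 thioredoxins, 22 glutaredoxins, 12 superoxide dismutases, 8 glyoxalases, 7 ascorbate peroxidases, 6 catalases, 6 thioredoxin reductases, 4 respiratory burst oxidases, 4 peroxiredoxins, 3 other glutathione proteins, and 1 each of glutathione reductase, glutathione peroxidase, ascorbate oxidase and ascorbate transporter. No description matched dehydroascorbate reductase.

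Respiratory burst oxidases in the plasma membrane use NADPH to make superoxide outside the cell. Superoxide dismutases turn superoxide into hydrogen peroxide, which catalases, ascorbate peroxidases and peroxiredoxins remove. Thioredoxins and glutaredoxins are small proteins that reduce disulfide bonds of other proteins, the first recharged by thioredoxin reductase and the second by glutathione, and glutathione transferases join glutathione to other molecules. In plant reproduction, reactive oxygen species are best known from pollen tube growth and reception, and glutaredoxins from anther and germ cell formation, where the maize glutaredoxin MSCA1 acts.

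The libraries held 2.54 and 2.68 M uniquely assigned reads in PES, 3.26 and 3.02 M in ES, and 3.01 and 3.20 M in NU, and members took 0.386% and 0.387% of the reads in PES, 0.293% and 0.274% in ES, and 0.253% and 0.257% in NU. Counts were enough to test 71 member models of 66 genes, which held 98.6% of the member reads. The other 88 models had a median of 5 reads and at most 39 over all 6 libraries, and no statement on change is made for them. Counts of replicate libraries varied beyond sampling noise, the ratio of chi-square to degrees of freedom being 1.89 in PES, 2.13 in ES and 1.93 in NU. The tissue labels were checked on 8 known embryo sac genes, whose summed deposited RPKM was 1313 and 1295 in PES, 2693 and 2386 in ES, and 14.2 and 9.63 in NU. In each nucellus library 7 of these 8 models had no read. Levels of members below are RPKM (reads scaled to transcript length and library size), with library sizes corrected by the TMM factors of edgeR, so that they stand on the same scale as the log2 changes. RPKM divides by the full model length, though reads of some models fell on a small part of it. Ranks between models and class sums hold for RPKM only. A model was called higher or lower at an adjusted p under 0.05 (edgeR quasi-likelihood test, Benjamini-Hochberg over all 18844 models tested) and a log2 change of at least 1 in size. In bulk tissue, fewer cells of a type and less RNA per cell cannot be told apart.

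The scale matters for these tissues. Scaling to total reads, as in the deposited RPKM, put the median log2 change over all models tested at -0.75 for ES over NU, against -0.00 with TMM. For PES over ES the median was -0.26 with total reads and -0.08 with TMM, and for PES over NU it was -0.99 and -0.06. A change below is therefore relative to the bulk of the transcriptome, and it is said where scaling to total reads ended a call.

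Summed over all 159 models, the redox transcripts were most abundant after pollination. Their TMM-scaled RPKM summed to 4473 and 4604 in PES, 3146 and 2919 in ES, and 1479 and 1492 in NU. The deposited RPKM gave the same order with smaller gaps, at 3468 and 3508 in PES, 2717 and 2533 in ES, and 2146 and 2153 in NU. The libraries of the 3 tissues did not overlap on either scale. No test was made on these sums, since 2 against 2 libraries cannot reach a small exact p.

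The make-up of the sum differed between the tissues. The 22 glutaredoxins together summed to 1116 and 1123 TMM-scaled RPKM in PES, 895 and 824 in ES, and 134 and 147 in NU, where a single glutathione transferase held 33.7% of the redox sum. Thioredoxins summed to 1234 and 1288 in PES, 1081 and 986 in ES, and 442 and 424 in NU. Glutathione transferases summed to 1560 and 1579 in PES, 751 and 696 in ES, and 662 and 666 in NU, but on the deposited scale their sum was lower in ES, with 648 and 604, than in NU, with 960 and 961. Respiratory burst oxidases summed to 158 and 147 in PES, 105 and 109 in ES, and 15.8 and 19.1 in NU. Superoxide dismutases ran the other way, with 33.4 and 32.3 in PES, 49.6 and 38.4 in ES, and 64.8 and 62.6 in NU.

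**Figure D1:**
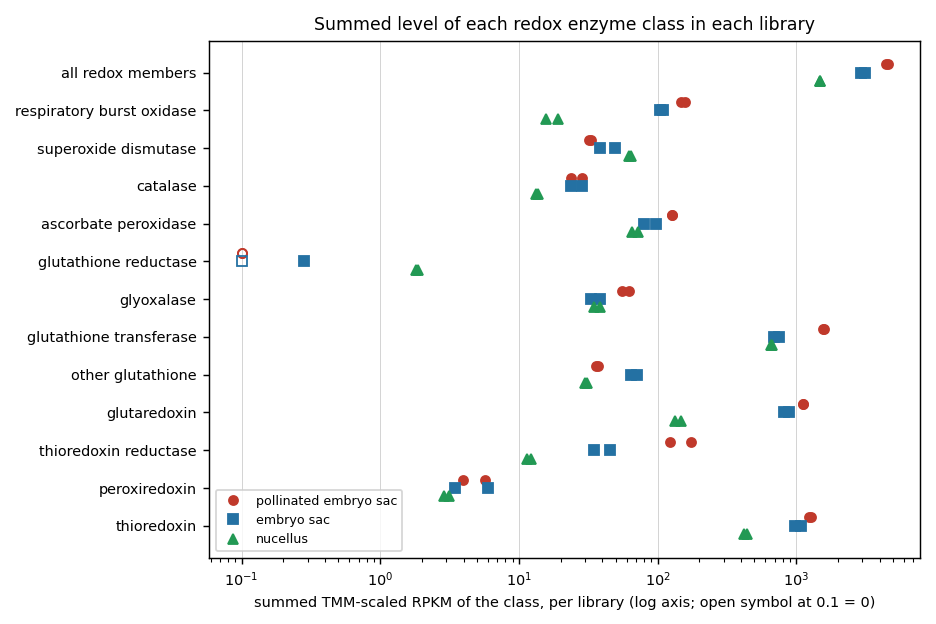
Summed TMM-scaled RPKM of each redox class (log axis), one symbol per library, with pollinated embryo sac as circles, embryo sac as squares and nucellus as triangles; an open symbol marks a sum of 0. Glutaredoxins lie at 824 to 1123 in both kinds of embryo sac and at 134 and 147 in nucellus, while superoxide dismutases are highest in nucellus.

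Before pollination, ES against NU asks how the gametophyte differs from the maternal tissue around it. Of the 71 tested members, 28 (39.4%) were higher and 10 (14.1%) lower in ES, against 23.2% higher and 16.3% lower among all tested models, where 39.4% were called in either direction. The members' median log2 change was 0.18, against -0.00 for all tested models. Scaling to total reads gave 21 members higher and 26 lower, so that 44.7% of the called members were higher, against 73.7% with TMM. Among all tested models 28.6% of the calls were higher with total reads and 58.8% with TMM, below the members' share under either scaling. By class, the 28 higher calls held 10 glutathione transferases, 6 thioredoxins, 5 glutaredoxins and 2 respiratory burst oxidases. The rest were 1 each of catalase, ascorbate peroxidase, glyoxalase, thioredoxin reductase and other glutathione proteins.

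PES against ES asks what changed within 14 to 16 h of pollination. Here 14 members (19.7%) were higher and 13 (18.3%) lower in PES, beside 13.0% higher, 19.3% lower and 32.3% called in either direction among all tested models. The median was 0.00 for the members and -0.08 for all tested models. The share of lower calls was thus near that of all models. With total reads 10 members were higher and 13 lower, and the share of higher calls was 43.5%, against 51.9% with TMM. For all tested models that share was 30.6% with total reads and 40.1% with TMM.

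In PES against NU, 28 members (39.4%) were higher and 14 (19.7%) lower, where 27.2% of all tested models were higher, 28.0% lower and 55.2% called in either direction. The median log2 change was 0.51 for the members and -0.06 for all tested models. With total reads the counts were 22 higher and 26 lower, and 45.8% of the calls were higher, against 66.7% with TMM. For all tested models 26% of the calls were higher with total reads and 49.3% with TMM. The 3 comparisons share libraries by pairs, so they are not independent of each other.

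**Figure D2:**
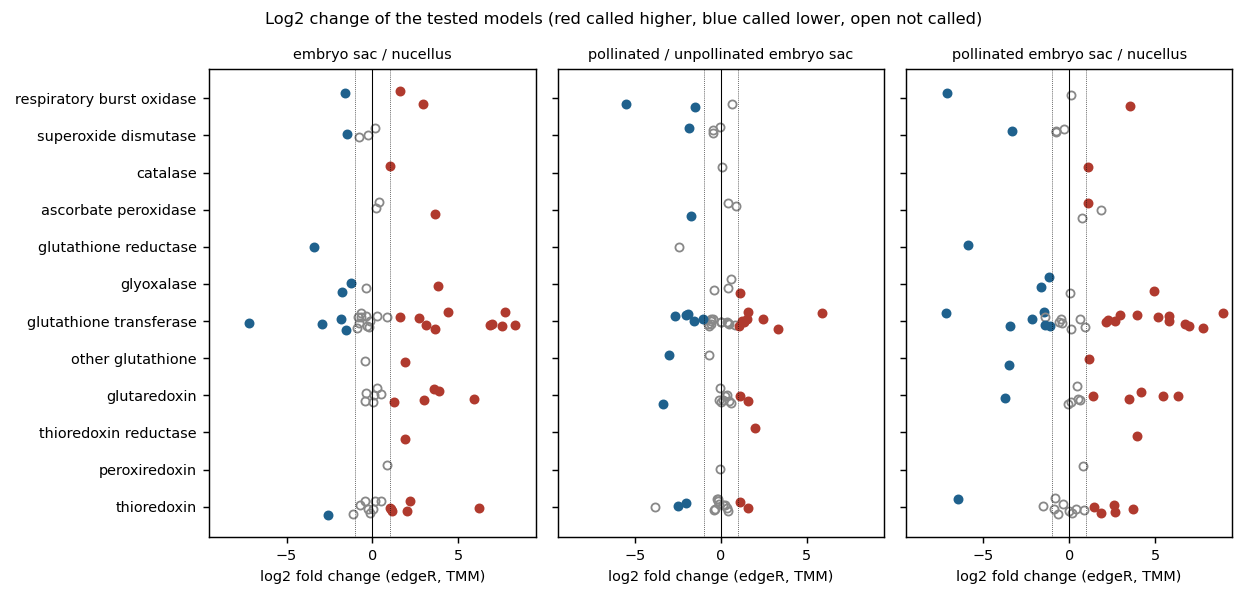
Log2 change of each tested member (one point per model) by class in the 3 comparisons, with red points called higher, blue points called lower, open points not called, and dotted lines at -1 and 1. Vertical scatter within a row has no meaning, and points of models with no read in one of the tissues are fitted values, not measured folds. Red points outnumber blue ones in both comparisons with nucellus, 28 to 10 and 28 to 14.

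Of 11 tested glutaredoxins, 5 (45.5%) were higher and 0 lower in ES than in NU, beside 23.2% and 16.3% of all tested models. With total reads 4 were higher and 2 lower. The median log2 change of the class was 0.52. All 4 tested models described as glutaredoxin subgroup III were among the higher ones, and they stayed so under total reads and in DESeq2. This subgroup, singled out after its values were seen, is the land plant class of glutaredoxins with neighbouring cysteines in the active site, studied in Arabidopsis as ROXY proteins. A further 3 listed models of the subgroup had too few reads for a test. One of them, Grx_C8 (GRMZM2G480903_T01), had no read in the PES and ES libraries and 3 and 6 reads in NU, the opposite order to the 4 tested models.

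The leading one was Grx_I1 of gene GRMZM2G318180 (model T01), with 590 and 614 RPKM in PES, 445 and 432 in ES, and 6.44 and 8.24 in NU. It was the most abundant glutaredoxin in both kinds of embryo sac, where it held 53.8% and 51.1% of the class sum in PES and ES. Its log2 change was 5.88 ± 0.17 (SE, adjusted p = 1.28e-73) for ES over NU, and 5.14 with total reads. After pollination its change of 0.46 ± 0.11 over ES was under the fold threshold, although the libraries did not overlap.

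A second Grx_I1 model, GRMZM2G311898_T01, had 205 and 193 RPKM in PES, 231 and 205 in ES, and 16.4 and 19.4 in NU. It was 3.60 ± 0.15 higher on the log2 scale in ES than in NU (adjusted p = 1.25e-54), and the PES and ES libraries overlapped. The third Grx_I1 model, GRMZM2G023237_T01, had 39.2 and 44.9 RPKM in PES, 17.7 and 20.4 in ES, and 1.25 and 3.34 in NU. It was 3.02 ± 0.32 higher in ES than in NU (log2, adjusted p = 2.6e-16). This change was 2.50 without NU replicate 1 and 3.89 without NU replicate 2. The model was another 1.14 ± 0.22 higher in PES than in ES (adjusted p = 4.5e-06), a call lost with total reads, at 0.96.

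Grx_A2 (GRMZM2G441906_T01) had 111 and 105 RPKM in PES, 46.9 and 25.8 in ES, and 2.25 and 2.6 in NU. It was higher at both steps, by 3.89 ± 0.29 on the log2 scale for ES over NU (adjusted p = 1.84e-25) and by 1.56 ± 0.18 for PES over ES (adjusted p = 1.08e-13). None of these 4 models had a second listed model of its gene. The 3 tissues were fully separated for Grx_A2 and for GRMZM2G023237_T01.

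The other 7 tested glutaredoxins were flatter, with a median log2 change of 0.06 for ES over NU against 3.74 for subgroup III. Grx_S17 (GRMZM2G131769_T01), a glutaredoxin with several domains, had the highest RPKM of the glutaredoxins in NU, with 66.2 and 70.5 RPKM in PES, 63.6 and 53.8 in ES, and 46 and 50.2 in NU. Its log2 change of 0.29 ± 0.12 for ES over NU was not called. Only glutaredoxin homolog1 (grx1, GRMZM2G150295_T01) of these 7 was higher in ES, with 54.6 and 51.5 RPKM in PES, 52.8 and 42.8 in ES, and 19.4 and 21.2 in NU. Its change of 1.24 ± 0.20 (log2, adjusted p = 1.17e-08) fell to 0.49 with total reads, under the fold threshold. In NU the reads of grx1 T01 lay on 10.87% of its length in both libraries, and those of Grx_S17 on 93.41% and 94.33%. Their RPKM therefore do not rank the amounts of these genes.

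**Figure D3:**
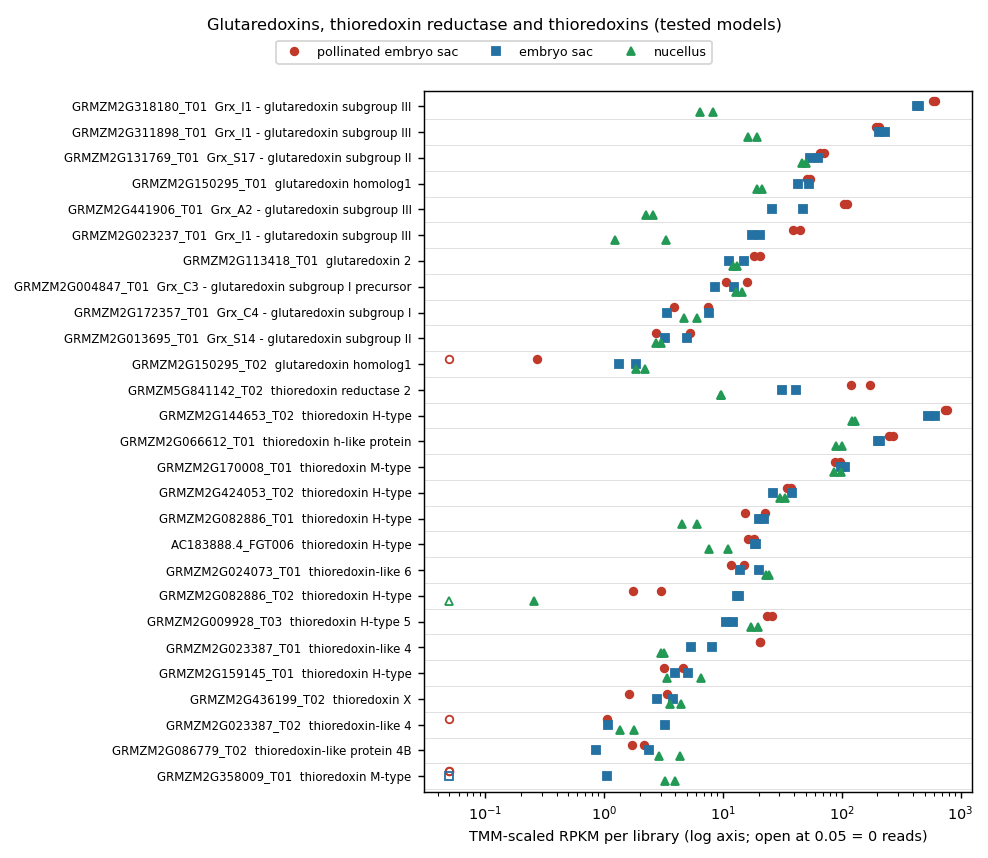
TMM-scaled RPKM (log axis) of the 11 tested glutaredoxins, thioredoxin reductase 2 and the 15 tested thioredoxins, one symbol per library, with pollinated embryo sac as circles, embryo sac as squares and nucellus as triangles; open symbols at 0.05 stand for 0 reads. Within each class the models run by falling embryo sac level, and the leading subgroup III glutaredoxin, of gene GRMZM2G318180, lies at 590 and 614 in pollinated embryo sac and 445 and 432 in embryo sac, against 6.44 and 8.24 in nucellus.

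Thioredoxin reductase, which passes electrons from NADPH to thioredoxin, was higher at both steps. The tested model (thioredoxin reductase 2, GRMZM5G841142_T02) had 121 and 172 RPKM in PES, 31.4 and 41.7 in ES, and 9.68 and 9.71 in NU. The tissues did not overlap. Its log2 change was 1.91 ± 0.18 for ES over NU (adjusted p = 1.06e-17) and 2.01 ± 0.14 for PES over ES (adjusted p = 4.21e-25), and it stayed called with total reads at 1.16 and 1.83. The other 5 listed models, of this gene and of 3 others, had at most 16 reads each.

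Of 15 tested thioredoxins, 6 (40%) were higher and 1 (6.67%) lower in ES than in NU, beside 23.2% and 16.3% of all tested models. With total reads this became 3 higher and 5 lower, so the class has no single direction. The h type, mostly cytosolic in plants and singled out after its values were seen, held the most abundant models. Thioredoxin h2 (trxh2, GRMZM2G144653_T02) was the most abundant thioredoxin in each tissue, with 734 and 777 RPKM in PES, 616 and 534 in ES, and 122 and 130 in NU. It was 2.19 ± 0.11 higher in ES than in NU on the log2 scale (adjusted p = 2.96e-42), and PES over ES was 0.39 ± 0.11.

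A thioredoxin h-like model (GRMZM2G066612_T01) had 251 and 271 RPKM in PES, 201 and 212 in ES, and 100 and 89.7 in NU. Its log2 change of 1.12 ± 0.12 for ES over NU (adjusted p = 7.49e-16) dropped to 0.37 with total reads and then missed the fold threshold. An h-type gene with a pair of tested models, GRMZM2G082886, was higher in ES for both. Its model T01 had 22.7 and 15.5 RPKM in PES, 22.4 and 20.1 in ES, and 6.04 and 4.56 in NU (adjusted p = 1.32e-08 for ES over NU). The h-type model AC183888.4_FGT006, with 18.5 and 16.3 RPKM in PES, 19.2 and 18.8 in ES, and 7.65 and 11 in NU, was at the threshold (1.01 ± 0.32) and its call was lost with total reads (0.27), in DESeq2 and without NU replicate 1.

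Thioredoxin h1 (trxh1, GRMZM2G424053_T02) did not follow, with 37.4 and 34.5 RPKM in PES, 38.2 and 26.5 in ES, and 33.2 and 30.1 in NU. Thioredoxin H-type 5 (GRMZM2G009928_T03) was higher in PES only against ES, with 26.1 and 23.6 RPKM in PES, 12.2 and 10.6 in ES, and 17.4 and 19.9 in NU. The change over ES was 1.12 ± 0.28 on the log2 scale (adjusted p = 0.000315), and 0.94 with total reads, which is under the fold threshold.

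The m-type thioredoxins are plastid proteins, and the 2 tested models differed. GRMZM2G170008_T01 was abundant and called in no comparison, with 88.8 and 96.8 RPKM in PES, 98.3 and 107 in ES, and 98.8 and 85.6 in NU. The other (trm1, GRMZM2G358009_T01) had no read in PES, 3 and 0 reads in ES, and 17 and 15 reads in NU. It was lower in ES than in NU by a ratio of 6.46 (95% interval for counting error 2.02 to 33), a call lost without ES replicate 2, without NU replicate 1 and in DESeq2. Thioredoxin-like 6 (GRMZM2G024073_T01), at 11.8 and 15.1 RPKM in PES, 20.3 and 14 in ES, and 24.3 and 23.3 in NU, was called in no comparison with TMM, but was lower in ES than in NU with total reads (log2 -1.21). Thioredoxin X, thioredoxin-like protein 4B and the h-type model GRMZM2G159145_T01 stayed between 0.854 and 6.56 RPKM in all 6 libraries and were not called in any comparison with TMM.

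Respiratory burst oxidases differed between isoforms. By RPKM the class was carried by respiratory burst oxidase protein E (GRMZM2G147966_T01), which held 97.7% of the class sum in PES, 90.2% in ES and 72.1% in NU. Reads of E lay on 88.66% and 84.76% of the model length in ES, and those of oxidase C on 3.6% and 3.58%. RPKM divides by full length, so these shares do not rank the amounts of E and C. Oxidase E had 153 and 145 RPKM in PES, 94.3 and 98.3 in ES, and 10.8 and 14.3 in NU. It was 2.93 ± 0.13 higher in ES than in NU on the log2 scale (adjusted p = 1.31e-49), and 0.63 ± 0.11 over ES in PES was under the fold threshold.

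Oxidase C (rbohC, GRMZM2G043435_T01) was highest in unpollinated sacs, with 4.67 and 2.25 RPKM in PES, 9.45 and 10 in ES, and 3.11 and 3.21 in NU. It was lower in PES than in ES by a log2 change of -1.50 ± 0.25 (adjusted p = 1.16e-07). This change was -2.10 without PES replicate 1 and -1.04, near the fold threshold, without PES replicate 2. Its change of 1.62 ± 0.22 for ES over NU (adjusted p = 3.61e-11) became 0.87 with total reads, under the fold threshold. PES and NU overlapped.

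The tested model of oxidase B (rbohB, GRMZM2G138152_T03) is 1 of 3 listed models of its gene, so it does not give the gene's level. In NU its reads lay on 5.15% and 5.07% of its length. The model had no read in either PES library, 6 and 4 reads in ES, and 23 and 27 in NU. Against a floor of 3 counts per library it was at least 3.72-fold lower in PES than in NU. Its change of -1.58 ± 0.52 for ES over NU (log2, adjusted p = 0.00622) was not called without ES replicate 2, without NU replicate 2 or in DESeq2. The PES over ES call (at least 1.22-fold lower) was lost without PES replicate 2 and in DESeq2.

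**Figure D4:**
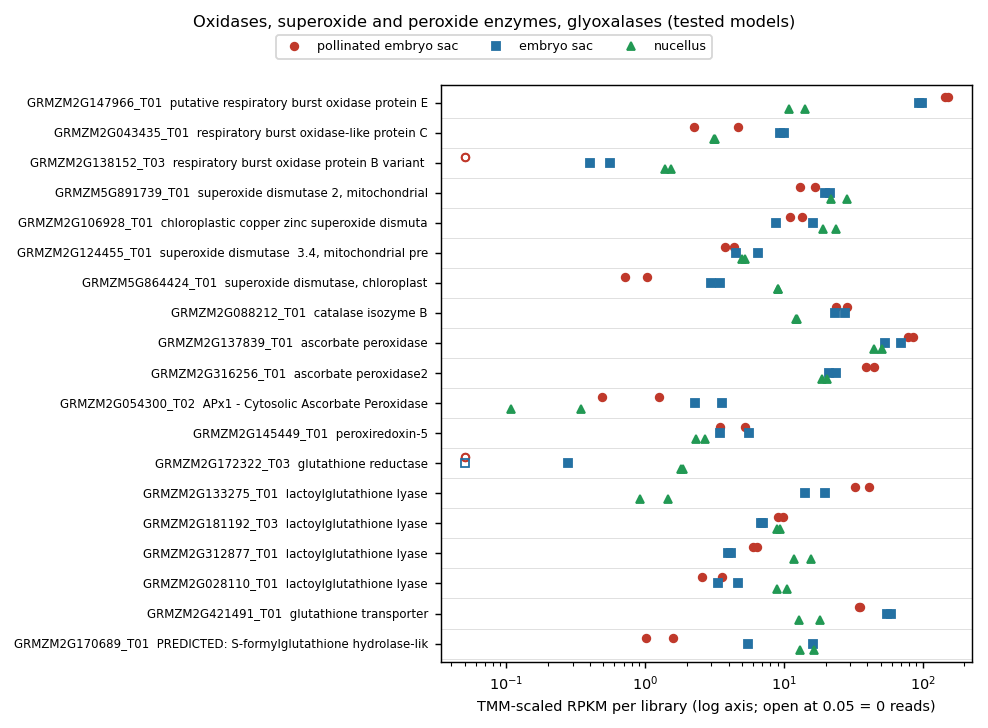
TMM-scaled RPKM (log axis) of the tested oxidases, superoxide dismutases, catalase, ascorbate peroxidases, peroxiredoxin, glutathione reductase, glyoxalases and other glutathione proteins, one symbol per library, with pollinated embryo sac as circles, embryo sac as squares and nucellus as triangles; open symbols at 0.05 stand for 0 reads. Oxidase E lies at 94.3 to 153 in both kinds of embryo sac and at 10.8 and 14.3 in nucellus, while the chloroplast superoxide dismutase of gene GRMZM5G864424 is lowest in pollinated embryo sac and highest in nucellus.

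None of the 4 tested superoxide dismutases was higher in any comparison, with either scaling. Among all tested models 23.2% were higher in ES than in NU, 13.0% in PES than in ES and 27.2% in PES than in NU (TMM). The chloroplast iron enzyme (fsd1, GRMZM5G864424_T01) was lower at both steps, with 0.71 and 1.03 RPKM in PES, 2.98 and 3.46 in ES, and 9.14 and 9.08 in NU. Its log2 change was -1.49 ± 0.34 for ES over NU (adjusted p = 6.98e-05) and -1.85 ± 0.65 for PES over ES (adjusted p = 0.0119). The second call rested on few reads and was lost without PES replicate 1, without ES replicate 2 or in DESeq2.

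The chloroplast copper-zinc enzyme (sodC, GRMZM2G106928_T01) had 11.1 and 13.6 RPKM in PES, 16.3 and 8.73 in ES, and 19 and 23.8 in NU. It was not called with TMM and was lower in ES than in NU with total reads (log2 -1.51). The most abundant one, mitochondrial superoxide dismutase 2 (GRMZM5G891739_T01), had 16.7 and 13 RPKM in PES, 21.6 and 19.8 in ES, and 28.5 and 21.7 in NU, and was likewise lower only with total reads (-1.02 for ES over NU). The mitochondrial enzyme 3.4 (GRMZM2G124455_T01) had 3.75 and 4.34 RPKM in PES, 6.56 and 4.51 in ES, and 5.25 and 4.96 in NU.

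Among the enzymes that remove peroxide, catalase was represented by isozyme B (cat1, GRMZM2G088212_T01), with 23.8 and 28.6 RPKM in PES, 23.5 and 27.5 in ES, and 12.4 and 12.3 in NU. Its change of 1.04 ± 0.17 for ES over NU (log2, adjusted p = 1.96e-08) was close to the threshold: it was 0.29 with total reads and 0.93 in DESeq2, and the call was also lost without ES replicate 2. PES and ES overlapped. A second listed model of this gene (T02), with too few reads for a test, ran the other way. It had 0 reads in both PES libraries, 0 and 2 in ES, and 10 and 5 in NU. The values of T01 are therefore not the level of the gene.

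The most abundant ascorbate peroxidase (GRMZM2G137839_T01) had 78.7 and 84.6 RPKM in PES, 70.1 and 53.5 in ES, and 44.9 and 50.6 in NU. The tissues did not overlap, but each change was under the fold threshold, the largest being 0.77 ± 0.14 for PES over NU (log2, adjusted p = 1.4e-07). Ascorbate peroxidase2 (GRMZM2G316256_T01) was higher in PES than in NU by 1.09 ± 0.27 on the log2 scale (adjusted p = 0.000137), and by 0.17 with total reads, where it was not called. It had 44.9 and 39.4 RPKM in PES, 23.7 and 21 in ES, and 18.9 and 20.4 in NU. The rare cytosolic APx1 model (GRMZM2G054300_T02), with 5 and 2 reads in PES, 13 and 19 in ES, and 3 and 1 in NU, was 3.61 ± 0.65 higher in ES than in NU (log2, adjusted p = 4.57e-07), and 3.02 without NU replicate 2 or 4.51 without NU replicate 1. Its lower level in PES than in ES (-1.73 ± 0.61) was not called in DESeq2, without PES replicate 2 or without ES replicate 2.

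Peroxiredoxin-5 (GRMZM2G145449_T01) was called in no comparison, with 3.48 and 5.28 RPKM in PES, 3.48 and 5.6 in ES, and 2.7 and 2.33 in NU. Glutathione reductase, which regenerates reduced glutathione, had 1 model with a description (gor1, GRMZM2G172322_T03), with 0 reads in PES, 1 and 0 in ES, and 10 and 11 in NU. It was lower in ES than in NU by a ratio of 12.7 (95% interval for counting error 2.05 to 526) and at least 1.56-fold lower in PES than in NU. These calls were lost without ES replicate 2 and without PES replicate 2, each in its own comparison, and DESeq2 made neither. These 22 reads belong to 1 of 3 listed models of the gene, so they do not give the gene's level.

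The glyoxalase system uses glutathione to detoxify methylglyoxal. Its first enzyme, lactoylglutathione lyase (glyoxalase I), was represented by 4 tested genes that went apart. GRMZM2G133275_T01 had 32.8 and 41 RPKM in PES, 19.9 and 14.1 in ES, and 1.46 and 0.918 in NU. It was 3.81 ± 0.40 higher in ES than in NU on the log2 scale (adjusted p = 1.41e-16). Its further change of 1.11 ± 0.25 in PES over ES (adjusted p = 5.87e-05) was 0.93 with total reads, and it was also not called without PES replicate 2 or without ES replicate 2.

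GRMZM2G312877_T01, the most abundant glyoxalase in NU, had 5.99 and 6.45 RPKM in PES, 4.19 and 3.97 in ES, and 11.9 and 15.6 in NU. It was lower in ES than in NU by a log2 change of -1.75 ± 0.30 (adjusted p = 7.58e-08). GRMZM2G028110_T01, with 3.57 and 2.58 RPKM in PES, 4.68 and 3.35 in ES, and 8.87 and 10.5 in NU, was also lower in ES (-1.25 ± 0.35, adjusted p = 0.00127), though not in DESeq2 (adjusted p = 0.0982). The gene named glx1 (GRMZM2G181192_T03) had 9.78 and 9.08 RPKM in PES, 7.1 and 6.8 in ES, and 9.32 and 8.96 in NU, and was lower in ES only with total reads (-1.14).

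Of the remaining glutathione proteins, the glutathione transporter GT1 (GRMZM2G421491_T01) had 35.5 and 34.8 RPKM in PES, 58.8 and 55.1 in ES, and 12.8 and 18.1 in NU. It was 1.88 ± 0.13 higher in ES than in NU on the log2 scale (adjusted p = 1.63e-30), and the PES over ES change of -0.70 ± 0.13 was under the fold threshold. Its higher level in PES than in NU (1.18 ± 0.14) was 0.26 with total reads, and was lost also without NU replicate 1. The model described as S-formylglutathione hydrolase-like (GRMZM2G170689_T01), an enzyme of formaldehyde removal, had 1.58 and 1.01 RPKM in PES, 5.52 and 16.2 in ES, and 16.6 and 13 in NU. It was lower in PES than in ES by a log2 change of -3.01 ± 0.57 (adjusted p = 3.04e-06), which was -2.06 without ES replicate 2 and -3.61 without ES replicate 1. ES and NU overlapped.

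Glutathione transferases, the largest class, split in all comparisons. Of 25 tested models, 10 were higher and 4 lower in ES than in NU, or 9 and 10 with total reads. In PES against ES, 8 were higher and 5 lower, or 7 and 5 with total reads. In PES against NU, 12 were higher and 6 lower, or 12 and 10 with total reads. The higher calls made up 40%, 32% and 48% of the class in these 3 comparisons, beside 23.2%, 13.0% and 27.2% of all tested models. The lower calls made up 16%, 20% and 24%, near or below the 16.3%, 19.3% and 28.0% of all tested models. The median log2 change of the class was -0.14 for ES over NU and 0.02 for PES over ES.

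The phi-class enzyme GSTF2 (gst1, GRMZM2G116273_T01) was the most abundant redox model in PES and in NU, with 887 and 993 RPKM in PES, 417 and 387 in ES, and 500 and 502 in NU. It was 1.23 ± 0.11 higher in PES than in ES on the log2 scale (adjusted p = 1.18e-21). For ES over NU the change was -0.32 ± 0.10 and not called with TMM, but -1.07 and called lower with total reads. Glutathione transferase5 (gst5, GRMZM2G308687_T01) was second in the class in both kinds of embryo sac and was higher at each step, with 351 and 245 RPKM in PES, 105 and 96.2 in ES, and 6.3 and 9.88 in NU. Its log2 change was 3.62 ± 0.17 for ES over NU (adjusted p = 3.46e-28) and 1.57 ± 0.13 for PES over ES (adjusted p = 9.56e-17).

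The largest change after pollination among the tested members was that of glutathione transferase24 (gst24, GRMZM2G032856_T01). It had 114 and 110 RPKM in PES, 2.39 and 1.29 in ES, and 0.193 and 0.182 in NU, where it had 1 read per library. Its log2 change for PES over ES was 5.89 ± 0.27 (adjusted p = 4.19e-48), and every fit without 1 library kept it called at 5.54 or more. The ratio for ES over NU was 9.91 (95% interval for counting error 2.21 to 91.1).

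A pair of models described as GSTU6, of the tau class, also stood higher after pollination. GRMZM2G434541_T01 had 30.1 and 36.7 RPKM in PES, 0.62 and 5.99 in ES, and 4.8 and 3.78 in NU. Its log2 change was 3.35 ± 0.45 for PES over ES (adjusted p = 4.87e-11), 2.47 without ES replicate 1 and 5.61 without ES replicate 2. GRMZM2G447632_T01 had 9.93 and 11.3 RPKM in PES, 0.818 and 3.07 in ES, and 3.7 and 0.748 in NU, a change of 2.45 ± 0.56 (adjusted p = 9.04e-05) that was 1.77 without ES replicate 1 and 3.63 without ES replicate 2. In both, the ES and NU libraries overlapped. The GSTU6 description covered 14 listed models of 10 genes, whose reads may be split or lost between near-identical copies in unique counting. Another of them, GRMZM2G109812_T01, had 1 and 2 reads in PES, 7 and 10 in ES, and 15 and 16 in NU, and was called lower in PES than in ES, but DESeq2 did not call it and 5 of the 6 fits without 1 library lost the call, the exception being the fit without ES replicate 1.

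GSTs that were present in the embryo sac and almost missing from NU formed a second pattern. GST 23 (gst23, GRMZM2G416632_T02) had 41 and 36 reads in PES, 83 and 73 in ES, and 1 and 0 in NU. The model GRMZM2G428168_T01 had 37 and 48 reads in PES, 118 and 118 in ES, and 3 and 0 in NU, a ratio of 130 for ES over NU (95% counting interval 43.9 to 634). Its lower level in PES than in ES (log2 -1.04 ± 0.23, adjusted p = 5.02e-05) was at the threshold and was lost without PES replicate 1, without ES replicate 2 and in DESeq2 (log2 -0.99). The ratio of GST 23 for ES over NU was 258, with an interval of 45.6 to 10238.

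Both tested models of glutathione S-transferase 4 (gst2, GRMZM2G132093) had no read in NU. Model T03 had 4.83 and 1.94 RPKM in PES and 10.4 and 9.38 in ES, and model T01 had 1.8 and 2.17 in PES and 8.5 and 6.42 in ES. Against the floor, T03 was at least 18.7-fold and T01 at least 12.6-fold higher in ES than in NU. Both were lower in PES than in ES, by log2 changes of -1.55 ± 0.43 and -1.89 ± 0.54 (adjusted p = 0.00117 and 0.00172), each call being lost in 1 of the 6 fits without a library (without PES replicate 2 for T03, without ES replicate 1 for T01) and in DESeq2.

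The gst7 model (GRMZM2G028556_T01), likewise without a read in NU, had 10.6 and 7.32 RPKM in PES and 7.08 and 2.66 in ES, at least 7.31-fold higher in ES than in NU. The theta-class model GRMZM2G077183_T01 had 10.7 and 9.7 RPKM in PES, 15 and 14.9 in ES, and 2.42 and 2.19 in NU, a log2 change of 2.69 ± 0.25 for ES over NU. Glutathione transferase30 (gst30, GRMZM2G044383_T01) had 13 and 10 reads in PES, 32 and 11 in ES, and 1 and 2 in NU, a ratio of 23.7 for ES over NU (95% interval 7.57 to 119). GST 26 (GRMZM2G363540_T01) was called higher at both steps, but its ES libraries, at 8.22 and 2.71 RPKM, lay far apart beside 9.94 and 13.5 in PES and 1.84 and 1.73 in NU. Its ES over NU call (log2 1.62 ± 0.46) was lost without ES replicate 1 (0.62), its PES over ES call (1.08 ± 0.38) without ES replicate 2 (0.52) or PES replicate 2, and both with total reads and in DESeq2.

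Some glutathione transferases were highest in NU. Model gst12 (GRMZM2G096269_T01) had 13 and 39 reads in NU and none in any embryo sac library, at least 5.17-fold lower in ES and at least 3.82-fold lower in PES. DESeq2 called neither difference (adjusted p = 0.348 and 0.323). GST 25 (GRMZM2G161905_T01) had 5.97 and 7.85 RPKM in PES, 2.28 and 2.44 in ES, and 16.9 and 19.4 in NU. It was lower in ES than in NU by a log2 change of -2.92 ± 0.38 (adjusted p = 7.95e-12) and higher in PES than in ES by 1.54 ± 0.51 (adjusted p = 0.00769), the second call being lost without PES replicate 2 and in DESeq2.

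The gst28 model (GRMZM2G146475_T01) showed the same order, with 17.2 and 21.1 RPKM in PES, 7.3 and 7.83 in ES, and 24.7 and 28.2 in NU. Its log2 change was -1.81 ± 0.26 for ES over NU (adjusted p = 8.45e-10) and 1.34 ± 0.31 for PES over ES (adjusted p = 0.000101). The model GRMZM2G052571_T01 was lower in ES than in NU (-1.57 ± 0.40, adjusted p = 0.000347, and 0.0546 in DESeq2), with 3.32 and 4.57 RPKM in PES, 2.65 and 3.2 in ES, and 9.85 and 7.69 in NU. A zeta-class model (gst17, GRMZM2G064255_T02) and a microsomal one (GRMZM2G042040_T01) were called in no comparison with TMM, and the second was lower in ES than in NU with total reads (-1.61).

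**Figure D5:**
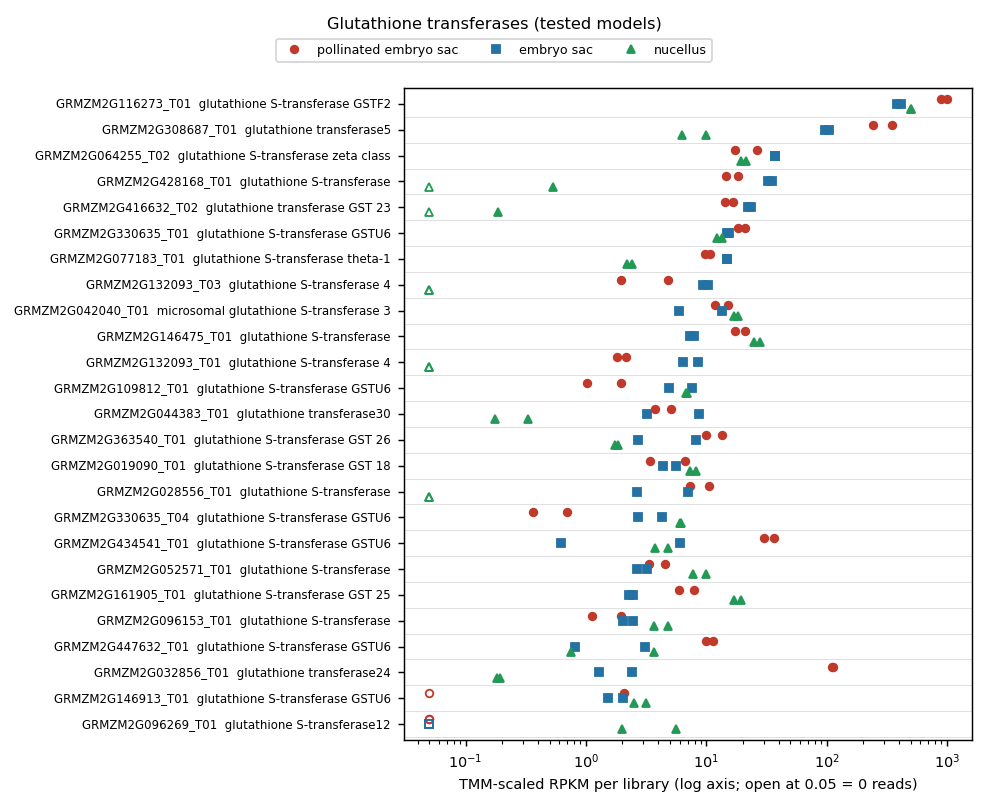
TMM-scaled RPKM (log axis) of the 25 tested glutathione transferase models by falling embryo sac level, one symbol per library, with pollinated embryo sac as circles, embryo sac as squares and nucellus as triangles; open symbols at 0.05 stand for 0 reads. Glutathione transferase24 lies at 114 and 110 in pollinated embryo sac against 2.39 and 1.29 in embryo sac, while GST 25 is highest in nucellus, at 16.9 and 19.4.

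Some of these genes are neighbours. In the gene order of the reference table for assembly Zm-B73-REFERENCE-NAM-5.0, 8 pairs of member genes were adjacent or had 1 gene between them, and all 8 were glutathione transferase pairs. The genes GRMZM2G052571, gst28 and gst7 follow each other with no gene between. The models of the first 2 were lower in ES than in NU, whereas gst7 had no read in NU. Gst12, read only in NU, has 1 gene between it and gst10 (GRMZM2G096153_T01), which had 1.94 and 1.12 RPKM in PES, 2.45 and 2.04 in ES, and 3.69 and 4.81 in NU. Neighbouring genes thus included pairs with unlike levels.

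Models of one gene could also differ. Of the 115 member genes, 44 had more than 1 listed model, and uniquely assigned reads place only the reads that tell the models apart. In PES against ES, thioredoxin-like 4 (GRMZM2G023387) had model T01 higher, at 20.4 and 20.7 RPKM in PES and 8.08 and 5.37 in ES, a log2 change of 1.59 ± 0.34. That model was also called higher in ES than in NU (1.10 ± 0.42), a call lost with total reads (0.35), in DESeq2 and without ES replicate 1, NU replicate 1 or NU replicate 2. The T02 model was lower in PES, at 3 and 0 reads in PES and 13 and 4 in ES, lower in PES by a ratio of 4.18 (95% interval 1.21 to 22.3). This call rested on few reads and was lost in DESeq2 and in 4 of the 6 fits without 1 library: without PES replicate 2, ES replicate 1, NU replicate 1 or NU replicate 2.

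The T02 model of grx1 had 1 and 0 reads in PES, 7 and 9 in ES, and 15 and 19 in NU, and was lower in PES than in ES by a ratio of 11.8 (95% counting interval 1.83 to 495), a call lost in DESeq2 and without PES replicate 2. Model T01 of the same gene was not called in PES against ES, at 0.15 ± 0.19 on the log2 scale. For the GSTU6 gene GRMZM2G330635, model T01 had 21 and 18.4 RPKM in PES and 14.9 and 15.5 in ES, while model T04 had 1 and 2 reads in PES and 17 and 10 in ES, lower in PES by a ratio of 6.64 (95% interval 2.04 to 34.2). The h-type gene GRMZM2G082886 showed a like split, with model T02 at 3.02 and 1.75 RPKM in PES and 13.1 and 13.6 in ES (log2 -2.47 ± 0.52, adjusted p = 2.05e-05) and model T01 at -0.16 ± 0.30. The difference between the models of a gene was not tested. Summed per gene, 70 genes could be tested, with 25 higher and 11 lower in ES than in NU and 15 higher and 10 lower in PES than in ES. The shares over all genes are not given for this fit, so these counts are not read as an excess.

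The predicted site of the protein was a feature that the rule did not use. Of the tested members, 6 carried plastid or chloroplast in the deposited cellular component or description: fsd1, sodC, gor1, trm1, thioredoxin X and trxh1. In ES against NU, 0 of these 6 were higher and 3 lower, and of the other 65, 28 were higher and 7 lower, beside 23.2% higher and 16.3% lower among all tested models. Scaling to total reads gave 0 and 5 for the plastid models and 21 and 21 for the others, and DESeq2 gave 0 and 1 for the plastid models and 24 and 3 for the others. Of the 6, trxh1 is described as H-type, and its deposited components also name an external encapsulating structure and membrane. Those of sodC also name the extracellular region. The other 65 include the m-type thioredoxin GRMZM2G170008_T01, whose deposited annotation names no plastid. Beside this, 36 photosynthesis models that mark green tissue summed to 18.2 and 18.1 deposited RPKM in PES, 33.7 and 35.4 in ES, and 96.9 and 97.3 in NU, with 25, 25, 18, 16, 13 and 9 of them at 0 in the same libraries. Of the 8 photosynthesis models tested, 2 were higher and 4 lower in ES than in NU. The part of green tissue in the plastid members' lower levels was not tested.

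Models on marker lists for other cells had reads in each tissue. The 38 models whose description named pollen, exine, Zm13 or profilin summed to 90.9 and 96.9 deposited RPKM in PES, 79.1 and 88.5 in ES, and 131 and 157 in NU, with 17 and 14, 14 and 13, and 20 and 18 of them at 0. This list had reads in unpollinated ES and its highest sum in NU, so it is no measure of pollen material. Integument, epidermis and vascular markers, 3 models in all, summed to 26 and 33 in PES, 27.8 and 22.9 in ES, and 57.6 and 90.8 in NU. Of the 2 tested among them, 1 was higher and 1 lower in ES than in NU, so the sum does not stand for each marker. The part of other cells in the members' values was not tested.

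Genes that supply or work beside these enzymes gave a mixed picture. Sulfate assimilation and cysteine synthesis are the route to glutathione. Of 12 tested models on this list, matched by description, 2 (16.7%) were higher and 0 lower in ES than in NU. That is below the 23.2% higher among all tested models, and total reads gave 1 and 3. Several of the 12 are described as adenosine 5'-phosphosulfate reductase-like, and their role in sulfate reduction was not tested. Cysteine synthase1 (GRMZM2G082185_T01) kept its call with total reads, with 28.1 and 31.5 RPKM in PES, 16.9 and 18.2 in ES, and 5.05 and 4.26 in NU, a log2 change of 1.91 ± 0.24. In PES against ES, 1 of the 12 (8.33%) was higher and 0 lower, beside 13.0% and 19.3% of all tested models. Of the enzymes that make glutathione, the member described as a chloroplastic-like glutathione synthetase (GRMZM2G379219_T01) had 1 read in all, in NU, and was not tested. Of 3 models matched by the terms for ascorbate synthesis, 2 were tested and neither was called in a comparison under either scaling. They are described as phosphomannomutase/phosphoglucomutase-like and GDP-mannose 4,6 dehydratase 2, and a role in ascorbate synthesis was not tested.

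Of 6 tested models for NADPH supply, NADP-dependent malic enzyme (GRMZM5G886257_T01) was higher in ES than in NU, with 311 and 321 RPKM in PES, 209 and 208 in ES, and 31.5 and 34.4 in NU (log2 2.66 ± 0.12). In PES against ES, 3 of the 6 (50%) were lower and 0 higher, beside 19.3% and 13.0% of all tested models. All 3 were ferredoxin-NADP reductases, which make NADPH in plastids. The most abundant of them (GRMZM2G320305_T01) had 0.345 and 0.665 RPKM in PES, 14.7 and 15.8 in ES, and 26 and 27.1 in NU, a log2 change of -4.83 ± 0.49 for PES over ES (adjusted p = 9.51e-17). The scaling left these 3 calls in place.

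Among 41 tested models of other thiol and oxidant enzymes, 9 (22%) were higher and 4 (9.76%) lower in ES than in NU, or 5 and 10 with total reads, and the share of higher calls was near the 23.2% of all tested models. The list reached further than its name, since 17 of the 41 were subunits of NADH and plastid quinone oxidoreductases. Alternative oxidase1 (GRMZM2G125669_T01), a mitochondrial enzyme that bypasses part of the respiratory chain, had 84.5 and 75.9 RPKM in PES, 138 and 131 in ES, and 0.965 and 0.781 in NU, a log2 change of 7.23 ± 0.21 for ES over NU (adjusted p = 3.99e-74). Nucleoredoxin1 (GRMZM2G048324_T01), a protein of the thioredoxin superfamily outside the member rule, had 270 and 244 RPKM in PES, 215 and 198 in ES, and 10.8 and 9.98 in NU (log2 4.32 ± 0.13, adjusted p = 1.13e-70). In PES against ES, 3 of the 41 were higher and 9 lower, or 1 and 10 with total reads, where 19.3% of all tested models were lower, and 6 of the 9 were quinone oxidoreductase subunits. In PES against NU, the sulfate and cysteine list had 3 higher and 1 lower (1 and 1 with total reads), NADPH supply 1 and 3 (1 and 4), and the other thiol and oxidant enzymes 13 and 14 (6 and 15). With TMM, the higher and lower calls made up 25% and 8.33%, 16.7% and 50%, and 31.7% and 34.1% of these lists. Among all tested models 27.2% were higher and 28.0% lower, near the shares of the last list.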

How the data were processed

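The deposited table of each library lists read counts per transcript model, and per the file headers these are unique reads whose total is stated there. Models without a read are not listed, and 0 was used for them. Deposited RPKM values are counts scaled to model length and total unique reads, which recomputation gave with a largest relative difference of 1.39e-08. The deposited coverage of a model, a percent of its length, and its length in bases were read from the same tables. The sources used here name no aligner, counting tool, strand use or genome build. Reads shared by models or near-identical genes are missing from unique counts or split, so such levels are uncertain, and antisense partners cannot be told apart.

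Counts of all 6 libraries were fitted together in R 4.3.3 with edgeR 4.0.16 (low counts removed by filterByExpr, TMM, robust quasi-likelihood test, SE from the F statistic), after a test on simulated data. The TMM factors were 0.782 and 0.768 for PES, 0.873 and 0.878 for ES, and 1.48 and 1.47 for NU. A floor of 3 counts per library equals 0.650 to 1.52 CPM. Intervals (95%, exact binomial on summed reads) and floors cover counting error only. Alternatives used DESeq2 1.42.0, limma 3.58.1 on log2(RPKM + 1) or log2(RPKM + 0.1), total read scaling, other filters and fits without 1 library.

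Symbols came from a RefSeq gene table (assembly Zm-B73-REFERENCE-NAM-5.0), where 98 of 115 member genes were found, used for names and gene order only. Members, classes and pathway lists were chosen with earlier results of these data known. The naming rule takes each tested member of classes with up to 8, the 3 largest calls per class, direction and comparison with at least 10 CPM and no overlap, and the most abundant members. Further models (other glutathione transferases, models of one gene, pathway genes) were named after their values were seen. Per the labels, the 2 libraries of a tissue are biological replicates. Equal replicate numbers did not pair libraries of different tissues (correlation of deviations 0.0165, 0.00359 and -0.0194).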

Additional observations from a re-analysis of the deposited data

How the results depend on the processing

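No called change of a named member turned round under any alternative. Of 1055 alternative values for their 76 calls, 976 kept direction and call and 79 fell short of the threshold, and summing counts per gene kept 72 of the 76. The counts of lower calls moved most. In ES against NU, 10 members were lower, against 4 in DESeq2, 26 with total read scaling, 26 with limma on log2(RPKM + 1) and 23 with a pseudocount of 0.1. In PES against ES, 13 were lower, against 4 in DESeq2, 8 with the libraries of those tissues alone and 8 without PES replicate 2; the 14 higher calls became 9 with limma and a pseudocount of 0.1. In PES against NU, 14 were lower, against 8 in DESeq2, 26 with total reads, and 30 and 28 with limma at pseudocounts of 1 and 0.1. The limma fits use RPKM on total reads, so they share that scale. TMM scaling moved the mean summed RPKM of all members to 4538 in PES, 3032 in ES and 1485 in NU, against 3488, 2625 and 2149 as deposited.

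Leaving out 1 library gave 27 to 30 higher and 7 to 13 lower members in ES against NU, 12 to 17 and 8 to 11 in PES against ES, and 28 to 31 and 10 to 16 in PES against NU. The fit with a replicate block gave 28 higher and 10 lower in ES against NU, 14 and 11 in PES against ES, and 28 and 14 in PES against NU, and changed none of the 76 calls, but the replicate numbers do not pair the libraries. With 2.54 to 3.26 M reads per library, the 88 untested members had too few unique reads to compare, most isoforms of catalase, peroxiredoxin and superoxide dismutase among them. How far depth, low levels or reads shared between models account for this was not tested.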
